A study of Mus musculus with 6 samples.

Results

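Gene expression in 3 lines of mouse androgenetic haploid embryonic stem cells (AG-haESCs) was set against that in 2 libraries of mouse embryonic stem cells labelled XX and cultured in 2i (ESC XX). These are 5 of the 6 libraries of the study, chosen by their labels, and the sixth, of round sperm, was not used here. Each AG-haESC library came from its own line, A129-2, AOS-14 or AOS-16, so the spread within the group is a spread between lines. Per the labels, all 3 lines are of an F1 hybrid strain, from C57BL/6 and DBA/2, and were derived from blastocysts that grew after a sperm head was injected into an oocyte without its spindle and the oocyte was activated. They were kept on feeder cells in medium with 15% serum replacement and 2i, and cells in G0/G1 with a haploid DNA content were collected by flow sorting after staining of DNA with a Hoechst dye. The ESC XX cells came from an Oct-GFP (C57) background and grew in 15% fetal bovine serum, LIF at 1000 U/ml and 2i. They were collected after a step to take away the feeders, and no sort is named. LIF is named for the ESC XX medium alone. Nothing in the labels says that the 2 ESC XX libraries are separate cultures, so their spread may be technical. Ploidy, parental origin of the genome, sex chromosomes, strain, medium, sorting, feeder removal and the table in which the values were deposited all go with the groups. Their parts in any difference between the groups cannot be told apart.

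Haploid embryonic stem cells carry a single chromosome set. In androgenetic lines that set comes from a sperm, so that every imprinted gene is present only as the father's copy. 2i is a pair of inhibitors, of the kinase MEK upstream of ERK and of GSK3, a kinase that holds back WNT signalling, and it keeps mouse embryonic stem cells in a naive state with little DNA methylation. Genes of the germ line with CpG-rich promoters, which somatic cells silence by promoter methylation, are read out in many studies of such lines, as are genes of the 2-cell embryo, which are active in a small and changing share of embryonic stem cells.

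All levels are in TPM, the share of a transcript in a library scaled to a total of 1000000. They were obtained by rescaling the deposited FPKM of each library over 23889 shared gene symbols, and are given in the order A129-2, AOS-14 and AOS-16 for the haploid lines and replicate 1 and 2 for ESC XX. Differences are on the log2(TPM + 1) scale, AG-haESC mean minus ESC XX mean, with the median difference over all genes kept (-0.10) removed, and the error after ± is the SD of the 3 lines. Since the groups were normalized in separate tables, no test was run between them and no p-value is given. A gene was called higher or lower where the group means differed by at least 1, which is 2-fold on this scale, and where, after the median was removed, every line lay above both ESC XX libraries or every line below both. Because that median was under 0, a line level with ESC XX, as where both were listed at 0, then counted as above. Such ties counted on the higher side alone. Of 14251 genes that reached 1 TPM in at least 1 library, 13629 were autosomal and were compared.

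Most autosomal genes lay close together in the groups. The median absolute difference was 0.39, and 85.7% of the genes lay within 1 of equal levels. Of the 13629 genes, 739 (5.42%) were called higher in the AG-haESC lines and 1094 (8.03%) were called lower, 1833 (13.4%) in all. Called genes were thus more often lower, with 40.3% of the calls on the higher side. The share was 34.4% with each line centred on its own median and 28.5% when the FPKM were used without rescaling. Differences were also larger on the lower side: 120 genes were lower by at least 3, and 65 were higher by that much. When a difference of at least 1 was asked of each line on its own, 217 genes (1.59%) were higher and 680 (4.99%) lower. The calls on the higher side were therefore spread less evenly over the lines, and 163 of the 739 had a level in AOS-14 more than 4 times that of each other line, against 9 for A129-2 and 7 for AOS-16. Ties at 0, which counted on the higher side alone, are among these calls. At the threshold itself, Nlrp14 at 1.0001 and Psmb8 at -1.0017 lay just inside, and Ephx4 at 0.9999 and Abhd14b at -0.9998 lay just outside.

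**Figure D1:**
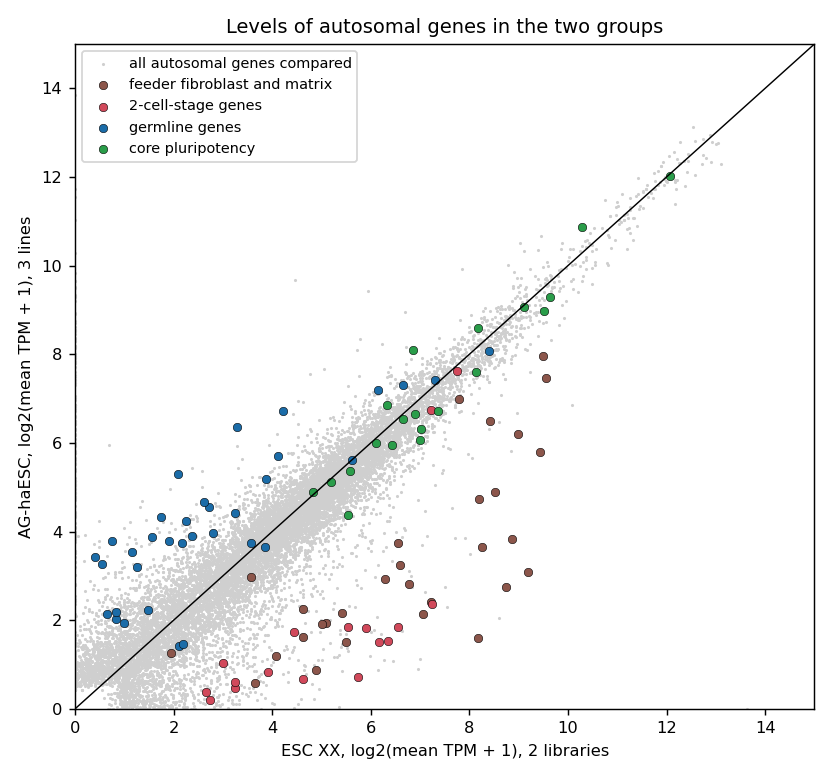
Mean level of each autosomal gene compared, as log2(mean TPM + 1), in the 2 ESC XX libraries (x axis) and the 3 AG-haESC lines (y axis), with members of 4 gene lists in colour. Most genes follow the diagonal of equal levels, with fibroblast and 2-cell-stage genes well under it, germline genes over it and core pluripotency genes near it.

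The libraries differed in ways that bear on these counts. Estimated depth ran from 8.52 M (mega) fragments for A129-2 through 9.84 M for AOS-16 and 15.44 M and 17.48 M for ESC XX to 18.16 M for AOS-14. The number of genes with an FPKM of 1 or more was 11406 to 11710 per library. Genes with transcripts under 200 nt took 12.7% of the total in AOS-14 and at most 0.111% elsewhere. The median SD of the lines was 0.36 per gene, whereas the ESC XX pair differed by a median of 0.07. Eef1a1, a translation elongation factor, was listed at 0 in all 3 lines and at 12603 and 12729 TPM in ESC XX, so a gene listed at 0 may be one whose estimate failed. Single lines passed the threshold against the ESC XX mean in 832 (6.1%), 1270 (9.32%) and 1103 (8.09%) genes upward and in 1408 (10.3%), 1348 (9.89%) and 1403 (10.3%) genes downward, for A129-2, AOS-14 and AOS-16.

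The labels were first checked against pluripotency genes, and both groups held them at high levels. Pou5f1, the central transcription factor of pluripotency, stood at 1565, 1860 and 2153 TPM in the haploid lines and at 1268 and 1240 in ESC XX. Nanog, another core factor, stood at 797, 543 and 531 against 791 and 792. Sox2, the partner of Pou5f1, was at 207, 166 and 202 against 289.7 and 272. None of the 3 was called. Over 20 core pluripotency genes the median difference was -0.17, with 1 called higher and 1 lower, and with 3 lower without A129-2 and 0 lower without AOS-16. The gene called higher was Dnmt3l, a cofactor of the de novo DNA methyltransferases, at 239.7, 196 and 387 TPM against 112 and 116 (1.30 ± 0.50). Zfp296, a zinc finger protein of pluripotent cells, was lower (-1.11 ± 0.54), although not without AOS-16.

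Naive-state genes likewise had a median near 0 (0.06 over 19 genes), with 1 higher and 3 lower, and 5 lower without A129-2. Tbx3, a T-box factor of naive cells, was lower at 54.8, 48.4 and 33.5 TPM against 123 and 123. Gbx2, a homeobox gene downstream of LIF, was also lower (-1.21 ± 0.13). Nr5a2, an orphan nuclear receptor, was lower by this rule (-1.06 ± 0.55), but not without AOS-14 or without AOS-16. Dppa3, also called Stella, a maternal factor that protects DNA methylation in the zygote, was higher at 179.8, 128 and 65.9 TPM against 54.1 and 61.1, with AOS-16 close to ESC XX, and it lost the call without A129-2 or without AOS-14. Both groups thus expressed the genes that define the labelled cell type, and few genes of these lists were called.

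Germline genes formed the list with the largest upward median of the 46 lists examined. Of 38 genes listed, 34 could be compared. Tdrd1, Tdrd9 and Figla stayed under the filter and Taf7l is X-linked. Of the 34, 23 were called higher and none lower (background 5.42% and 8.03%), with a median difference of 1.49 against -0.03 over all autosomal genes. These values over all genes, 5.42%, 8.03% and -0.03, are the background of every list that follows. The medians of the single lines were 1.81, 1.91 and 0.84 for A129-2, AOS-14 and AOS-16, and 14 genes were higher by at least 1 in each line. The summed level of the autosomal genes listed was 2255, 934 and 907 TPM in the lines against 852 and 857 in ESC XX. By this sum the AOS lines lay close to ESC XX and A129-2 far over it. Without A129-2, 23 genes were higher and 2 lower.

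Promoter windows of some of these genes are shown for letters they share, which played no part in listing the genes. The E-box with the letters CACGTG is known as the recognition sequence of MAX and its partner MGA, members of a Polycomb complex that silences germline genes in embryonic stem cells. Windows of 250 bases before the annotated start, from RefSeq on GRCm38.p6, were found for 10460 of the genes compared and were read on both strands. CACGTG lay in 11 of the 21 higher germline genes with a window (52.4%), in 2 of 9 that were not called, and in 9.94% of all 10460. These letters hold a CG, and the windows differed in CG content. The median number of CG was 17 in the higher genes, 10 in those not called and 17 over all 10460. The E2F-type letters TCCCGC lay in 5 of the 21 higher genes and in 33.96% of all windows. A match is a description of the letters and not evidence of binding, and the expression values come from another build, mm9. The last 150 bases before the start are given for 5 of the higher genes, picked because they hold these letters, 5′ to 3′ on the strand of the gene, with CACGTG in capitals. The windows lie at chr3:40708721-40708870 (plus strand) for Slc25a31, chr3:102936101-102936250 (minus strand) for Sycp1, chr10:88459437-88459586 (plus strand) for Sycp3, chr6:49395389-49395538 (plus strand) for Stk31 and chr13:112652311-112652460 (minus strand) for Ddx4.
Slc25a31: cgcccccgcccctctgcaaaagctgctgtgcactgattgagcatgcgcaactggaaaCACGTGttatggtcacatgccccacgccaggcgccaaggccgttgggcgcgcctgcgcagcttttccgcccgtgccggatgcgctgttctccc
Sycp1: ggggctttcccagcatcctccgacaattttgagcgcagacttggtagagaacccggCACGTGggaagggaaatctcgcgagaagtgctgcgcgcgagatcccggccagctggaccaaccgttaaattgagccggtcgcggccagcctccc
Sycp3: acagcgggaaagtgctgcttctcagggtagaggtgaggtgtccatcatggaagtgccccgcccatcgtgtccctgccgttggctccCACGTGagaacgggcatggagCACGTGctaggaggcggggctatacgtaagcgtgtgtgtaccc
Stk31: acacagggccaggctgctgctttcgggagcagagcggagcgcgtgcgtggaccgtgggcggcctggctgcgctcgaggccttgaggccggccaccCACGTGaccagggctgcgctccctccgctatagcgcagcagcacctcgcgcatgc
Ddx4: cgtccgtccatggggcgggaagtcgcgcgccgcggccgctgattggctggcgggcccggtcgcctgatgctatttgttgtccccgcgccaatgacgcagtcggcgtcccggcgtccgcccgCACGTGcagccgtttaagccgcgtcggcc

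Among regulators of germ cell development, Sohlh2, a transcription factor of early germ cells, stood at 103, 65.5 and 75.0 TPM in the lines against 8.64 and 8.83 in ESC XX (3.15 ± 0.33). Stra8, needed for entry into meiosis, was at 56.5, 13.9 and 44.4 against 4.03 and 2.45 (3.13 ± 1.04). Dazl, an RNA-binding protein of germ cells, was at 163, 86.9 and 64.3 against 18.3 and 17.2 (2.49 ± 0.68). As the call requires, all 3 lines lay over both ESC XX libraries for each of these, with A129-2 highest. Ddx4, the RNA helicase also called Vasa, was at 14.7, 15.7 and 6.92 against 3.44 and 3.55 (1.61 ± 0.60), with AOS-16 lowest of the lines.

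Several genes of the synaptonemal complex and of meiotic cohesin, which hold homologous chromosomes together in meiosis, were higher as well. Sycp1, which forms the transverse filaments, was at 20.3, 12.4 and 8.72 TPM against 1.94 and 1.98 (2.35 ± 0.57). Sycp3, of the lateral elements, was at 34.8, 13.2 and 5.96 against 3.68 and 3.77 (1.79 ± 1.18). Smc1b, a meiotic cohesin subunit, was at 12.7, 8.13 and 4.88 against 0.401 and 0.538 (2.72 ± 0.61). In all 3 the order was A129-2, AOS-14, AOS-16 and then ESC XX. Stag3, another cohesin subunit, followed the same order with a smaller gap (41.5, 19.4 and 6.97 against 5.36 and 5.72). The axis proteins Hormad1 (1.38 ± 0.42) and Hormad2 (1.28 ± 0.17) and Syce1 (1.99 ± 0.79), of the central element, were also called higher. By contrast, Syce2, of the same element, and Rec8, the meiotic kleisin, differed by 0.20 and -0.12 and were not called.

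Several genes of the piRNA pathway, which restrains transposons in germ cells, gave the same direction. Mael stood at 22.5, 21.8 and 12.6 TPM against 2.71 and 1.98 (2.65 ± 0.44), Piwil2 at 14.7, 11.9 and 5.39 against 1.21 and 1.23 (2.40 ± 0.68) and Asz1 at 21.2, 4.64 and 3.39 against 0.383 and 0.267 (2.73 ± 1.26). Rnf17 and Mov10l1 were called higher too (1.23 and 1.44). Slc25a31, the germline form of the mitochondrial ADP/ATP carrier, was at 23.6, 10.18 and 4.60 against 0.371 and 0.971 (2.92 ± 1.07). Outside the list, Gtsf1, a partner of PIWI proteins, and Tex19.2, a testis-expressed gene, were among the 15 largest upward differences that could be named, at 3.05 ± 0.57 and 2.68 ± 0.66. So were Cyct (2.71 ± 0.43), the testis form of cytochrome c, and Cox7b2 (3.15 ± 1.06), a cytochrome oxidase subunit paralog.

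**Figure D2:**
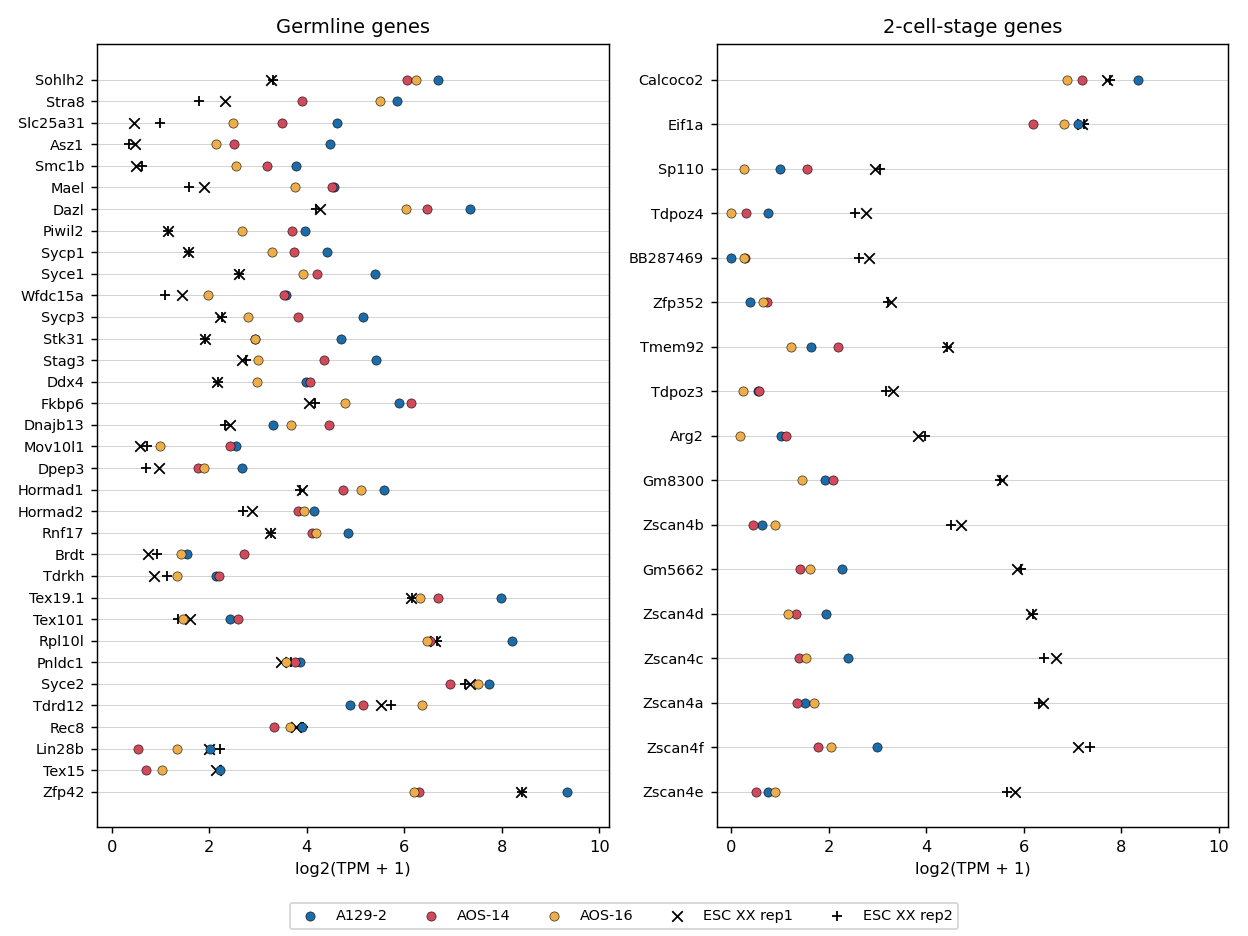
Level of every compared gene of the germline list (left) and the 2-cell-stage list (right) in each library, as log2(TPM + 1); filled circles are the 3 AG-haESC lines and crosses the 2 ESC XX libraries. For 23 of 34 germline genes all lines lie to the right of ESC XX and pass the threshold, and for 15 of 17 2-cell-stage genes all lie to the left.

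Genes of the 2-cell embryo were lower in the haploid lines. Of 27 genes listed, 20 were in the tables, 17 of them could be compared and 15 were called lower, all 15 by at least 1 in each line, with a median of -3.02. Zscan4f, a regulator of telomeres in this transient state, was at 6.99, 2.41 and 3.10 TPM against 138 and 163 (-4.87 ± 0.65). Zscan4c was at 4.28, 1.62 and 1.87 against 100.4 and 84.9 (-4.67 ± 0.55). The 6 Zscan4 copies on chromosome 7 are nearly identical and the counting may have split their reads, so their single values are uncertain and they are not 6 independent observations. Genes elsewhere followed the same direction, with Zfp352, expressed from a 2-cell-stage promoter, at 0.308, 0.659 and 0.575 against 8.71 and 8.30 (-2.55 ± 0.18) and Tmem92 at 2.11, 3.57 and 1.34 against 20.9 and 20.5 (-2.65 ± 0.48). The pair not called were Calcoco2 and Eif1a, with differences of -0.16 and -0.41. The opposite directions of the germline and 2-cell-stage lists held in every alternative run.

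Fibroblast and extracellular matrix genes gave the largest downward median of all lists, -3.28 over 30 genes, with 27 called lower and none higher. Their summed level was 886, 813 and 1081 TPM in the lines against 6853 and 6909 in ESC XX. Col1a1, a chain of type I collagen, was at 11.1, 56.4 and 95.4 TPM against 704 and 682 (-3.99 ± 1.55). S100a4, a calcium-binding protein of fibroblasts, was at 0, 1.93 and 4.20 against 276 and 298, the largest downward difference of the genes that could be named. Thbs1, a matrix glycoprotein, was at 3.97, 4.89 and 8.19 against 429 and 430.3. Line medians over the list were -4.36, -2.90 and -2.75, with A129-2 lowest, whereas the summed level was lowest in AOS-14. These are markers of the feeder fibroblasts used in culture. The lines were sorted by DNA content and ESC XX was depleted of feeders, and the part of fibroblasts in the result was not tested. In bulk RNA, fewer cells of a type and less RNA per cell cannot be told apart.

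Ccdc80, Timp2, Cd44, Aebp1, Lox and Col12a1, known from matrix or mesenchymal cells, were among the 15 largest downward differences, at -6.00, -5.22, -5.18, -5.11, -4.89 and -4.96. The mesenchymal genes Snai2 (0.233, 0.75 and 0.373 TPM against 8.80 and 9.84) and Cdh11 (0.478, 2.15 and 1.10 against 37.0 and 37.1) were lower in the list of epithelial adhesion and mesenchymal transition, in which the epithelial genes Dsp (1.83 ± 0.74) and Cldn7 (1.85 ± 0.60) were higher. Of its 26 genes 5 were lower, 2 higher and 19 not called, with a median of -0.04. Lyz2, Tyrobp and C1qc, which macrophages express, were listed at 0 in all 3 lines. In the ESC XX pair Lyz2 was at 14.7 and 10.6 TPM, Tyrobp at 2.81 and 2.73 and C1qc at 3.15 and 1.91. These 3 were named because they were listed at 0 in the lines, and of them Lyz2 is in the list of blood and spermatogenic markers. Of its 14 markers 5 could be compared, with 1 lower (Lyz2), 1 higher and a median of -0.24, which was above 0 in 4 alternatives. The marker called higher was Hbb-b1, a beta globin of red blood cells, at 0, 5.84 and 0 TPM and listed at 0 in ESC XX, so that AOS-14 alone had it above 0, and it lost the call in 4 of the 10 alternatives that gave it a value. Of the 14 markers 1 is not autosomal, and the others summed to between 18.1 and 23.6 TPM in the lines and to 44.4 and 48.3 TPM in ESC XX. The spermatid genes Prm2, Tnp1 and Tnp2 stayed under 1 TPM in every library.

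Of 25 genes of the actin cytoskeleton, 10 were lower (40%, background 8.03%) and none higher, with a median of -0.71. The lower genes included the smooth muscle actin Acta2 at 3.58, 6.12 and 12.6 TPM against 585 and 588, the actin-binding Tagln at 12.4, 9.14 and 17.9 against 462 and 473 and the myosin light chain Myl9 at 6.12, 4.06 and 6.97 against 187 and 176. Acta2 and Tagln stand in the fibroblast list too. The general cytoplasmic actin Actb was not called, at 3243, 2646 and 3570 against 2232 and 2155. Serum response factor regulates many such genes through a motif called the CArG box. In the 250 bases before the start, it was found in 3 of 8 lower members with a window, in 3 of 13 that were not called and in 1.37% of all windows. Acta1, the skeletal muscle actin (-3.70 ± 0.17), at chr8:123894776-123894925 (minus strand), and Cnn2, a calponin (-1.64 ± 0.17), at chr10:79988450-79988599 (plus strand), are shown with the box in capitals.
Acta1: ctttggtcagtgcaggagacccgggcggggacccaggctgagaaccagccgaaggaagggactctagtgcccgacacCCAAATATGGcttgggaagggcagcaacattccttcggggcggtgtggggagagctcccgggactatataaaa
Cnn2: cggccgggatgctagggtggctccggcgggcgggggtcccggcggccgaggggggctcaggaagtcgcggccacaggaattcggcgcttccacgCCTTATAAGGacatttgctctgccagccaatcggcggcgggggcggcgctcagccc

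Among targets of signalling that serum, growth factors or 2i act on, calls were mostly lower, although most members of the lists other than the WNT targets were not called. Of 24 immediate early and serum response genes, 7 were lower (29.2%) and 2 higher, beside 8.03% and 5.42% of all autosomal genes. Egr1, an immediate early transcription factor, was at 4.44, 3.33 and 1.71 TPM against 395 and 380.4 (-6.50 ± 0.51), next to S100a4 the largest downward difference of the genes that could be named. Myc was at 2.12, 0.358 and 1.00 against 30.4 and 28.6 (-3.80 ± 0.60). Fos was at 34.9, 71.0 and 81.4 against 139 and 132 (-1.09 ± 0.64), a much smaller gap. Gadd45b, a stress-induced gene, went the other way at 234, 291 and 288 against 55.5 and 48.3 (2.46 ± 0.17). Among 20 ERK feedback genes and targets, 7 were lower (35%) and none higher, with a median of -0.56. Spry2, a feedback inhibitor of receptor signalling, was at 14.9, 15.8 and 13.2 against 75.7 and 76.5 (-2.20 ± 0.13), and Dusp6, the phosphatase that acts on ERK, at 4.17, 2.94 and 3.33 against 15.6 and 17.4 (-1.87 ± 0.20). The 3 lines lay close together for both genes.

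WNT targets were lower in 10 of 18 cases (55.6%, background 8.03%), with none higher and a median of -1.17 (-0.03 over all autosomal genes). Axin2, a feedback inhibitor of the pathway, was at 1.10, 1.06 and 1.47 TPM against 19.11 and 19.2 (-3.09 ± 0.14). Cdx1, a homeobox target, was at 2.72, 2.22 and 2.93 against 61.0 and 59.7 (-3.98 ± 0.15), and Sp5, a zinc finger target, at 0, 0.151 and 0.267 against 12.0 and 11.9 (-3.41 ± 0.17). Ccnd2, a D-type cyclin, was at 0.422, 0.987 and 3.46 against 40.4 and 41.7 (-4.07 ± 0.85). As the call requires, every line lay under both ESC XX libraries for each of these genes. In the NODAL and BMP list 5 of 24 (20.8%) were lower and none higher, and 8 without A129-2. They were Lefty2, an inhibitor of NODAL, at 95.1, 17.5 and 36.0 against 260.4 and 265, the BMP targets Id1 (-2.14 ± 1.196) and Id3 (-2.76 ± 0.92), Id4 (-1.999 ± 0.63) and the ligand Bmp4 (-1.43 ± 0.10). Of 18 LIF and STAT3 genes, 1 was higher and 2 lower, with a median of 0.13. Osmr, a cytokine receptor subunit, was one of the latter at 0.0921, 0.231 and 0.404 TPM against 6.24 and 6.94.

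**Figure D3:**
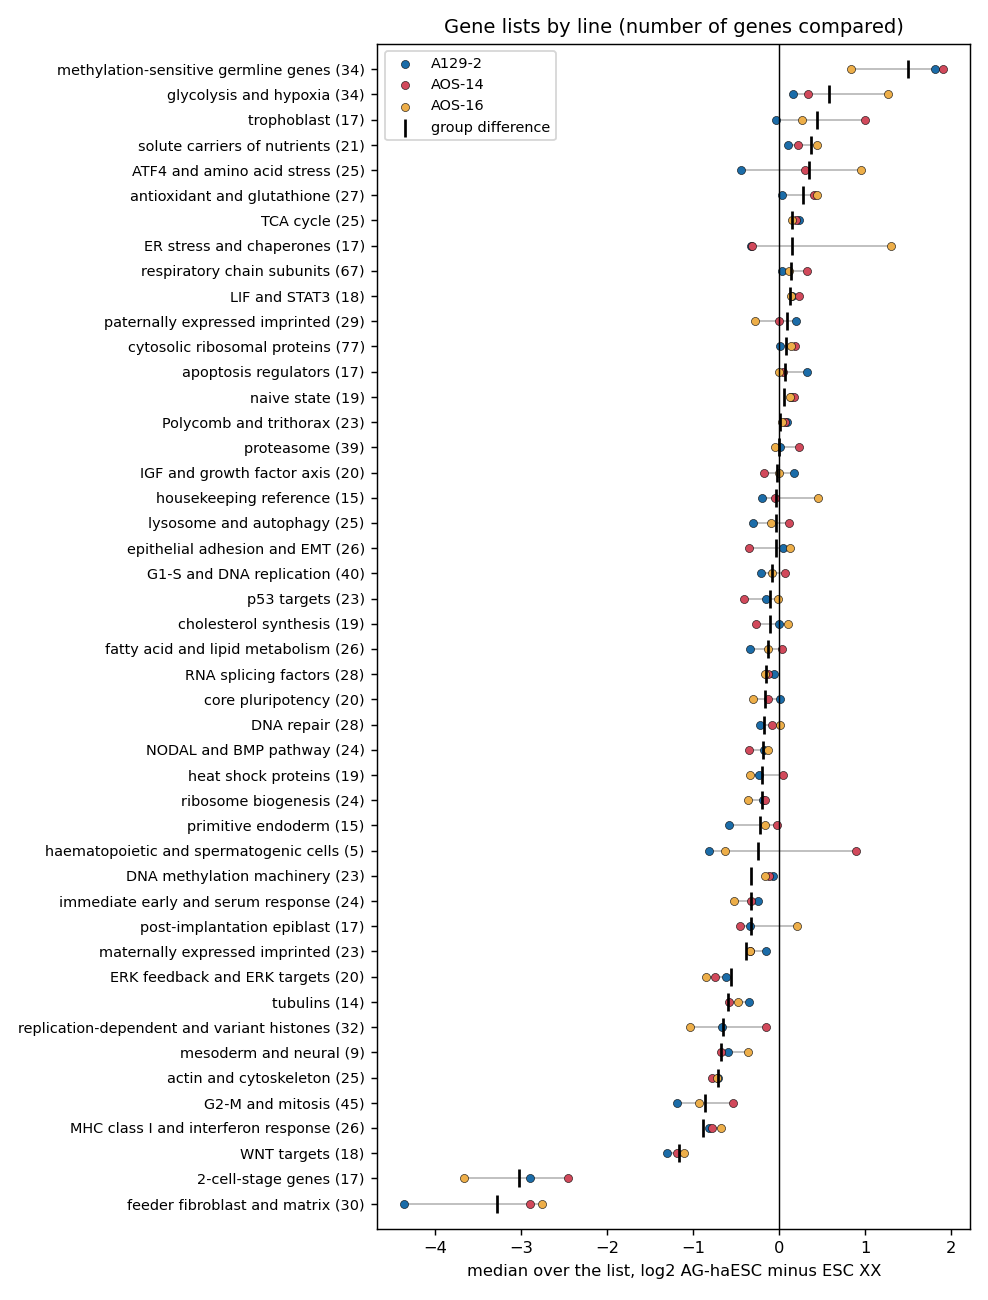
Median log2 difference from ESC XX over each gene list, with the number of genes compared in brackets; dots are the 3 lines, each centred on its own median over all genes kept, and the bar is the group difference. By the group bar, germline genes lie farthest to the right and fibroblast and 2-cell-stage genes farthest to the left. The lines spread widely for ER stress and ATF4 genes. In AOS-16 the germline median (0.84) lies under those of ER stress (1.29), glycolysis and hypoxia (1.27) and ATF4 genes (0.95).

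Cell cycle genes differed by phase. Of 45 G2-M and mitosis genes, 18 were lower (40.0%, background 8.03%) and 1 higher, with a median of -0.87 and line medians of -1.19, -0.54 and -0.93. When a difference of at least 1 was asked of each line, 5 of the 45 were lower, beside 4.99% of all autosomal genes. Aurka, a spindle pole kinase, was at 38.5, 50.6 and 44.0 TPM against 153 and 153 (-1.67 ± 0.19). Ube2c, a ubiquitin-conjugating enzyme of mitotic exit, was at 160.1, 222 and 195 against 597 and 599.5 (-1.54 ± 0.24). Ccnb1, the mitotic cyclin, was at 102, 111 and 88.8 against 269.8 and 267 (-1.31 ± 0.16). Pttg1, securin, was higher (1.03 ± 0.51), but not without AOS-14, without ESC XX replicate 2, without the filter or after quantile normalization. Of 40 genes of G1-S and DNA replication, 1 was lower and none higher, with a median of -0.08. That gene was Ccnd1, a D-type cyclin that is also a WNT target (-1.15 ± 0.26). The haploid cells were sorted in G0/G1 and no sort is named for ESC XX, and the sort and the other differences between the groups cannot be told apart.

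Histone genes had 7 lower (21.9%, background 8.03%) and 1 higher of 32 (median -0.66). H2afx, the variant that marks DNA breaks when phosphorylated, was at 148, 95.9 and 60.0 TPM against 508 and 490.4 (-2.28 ± 0.64), and Hist1h1c, a linker histone, at 8.52, 9.45 and 7.45 against 33.9 and 31.6 (-1.73 ± 0.15). Without AOS-14, 11 histone genes were lower, and without ESC XX replicate 2, 12. Histone genes of the clusters are near-identical and their RNAs mostly lack polyA tails, so their levels in polyA libraries are uncertain. Of 14 tubulins 4 were lower, but only Tubb4b (368, 218 and 175 against 713 and 708) kept its call without AOS-14.

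Genes of MHC class I presentation and the interferon response were lower in 12 of 26 cases (46.2%, background 8.03%) and higher in 1, with a median of -0.88. With FPKM as deposited, 7 of 23 were lower. B2m, the light chain of MHC class I, was at 52.2, 68.3 and 46.3 TPM against 456 and 461 (-2.94 ± 0.28). H2-D1, a heavy chain, was at 24.97, 6.29 and 7.46 against 66.6 and 62.0 (-2.38 ± 1.00). H2 genes vary between mouse strains and have near-identical copies, and the groups differ in strain, so this value is uncertain. Isg15, a ubiquitin-like protein induced by interferon, was at 0.367, 0.905 and 0.881 against 15.0 and 10.4 (-2.89 ± 0.27). Irf9 (-1.35 ± 0.30), a subunit of the interferon-activated transcription factor, and the membrane protein Bst2 (-1.28 ± 0.52) were also lower. All lines lay under both ESC XX libraries for these genes, as the call requires. B2m, MHC class I and many of the other genes are also expressed by fibroblasts, and the part of fibroblasts in these values was not tested. Interferon-stimulated response elements contain a repeat of GAAA. A pair of GAAA with 2 bases of any kind between them, read on both strands, lay in 4 of 11 lower members with a window, in 3 of 11 not called and in 2.98% of all windows. The median number of CG in a window was 7 in the lower members, 5 in those not called and 17 over all genes. The share over all windows thus comes from windows of another base composition. B2m, at chr2:122147537-122147686 (plus strand), and Isg15, at chr4:156200819-156200968 (minus strand), are shown with these letters in capitals.
B2m: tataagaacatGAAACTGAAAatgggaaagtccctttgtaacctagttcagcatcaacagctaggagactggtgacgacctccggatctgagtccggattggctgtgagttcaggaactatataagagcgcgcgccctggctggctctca
Isg15: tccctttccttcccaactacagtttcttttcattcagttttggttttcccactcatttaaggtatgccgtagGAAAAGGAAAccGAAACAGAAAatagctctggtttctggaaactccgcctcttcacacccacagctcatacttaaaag

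Of 34 glucose metabolism and hypoxia genes, 7 were higher (20.6%, background 5.42%), 1 was lower and 26 were not called, with a median of 0.58 and line medians of 0.16, 0.33 and 1.27. Slc2a1, the main glucose transporter, was at 629, 625 and 1658 TPM against 235 and 224 (2.02 ± 0.81). Ndrg1, a hypoxia-induced gene, was at 81.7, 151 and 375 against 33.96 and 30.6 (2.44 ± 1.10). Slc2a3, another glucose transporter, was at 1050, 893 and 1912 against 553 and 553 (1.24 ± 0.58). All 3 lines were over ESC XX for these, as the call requires, with AOS-16 far over the other lines. Without AOS-16 the count was 3 higher and 2 lower with a median of 0.27, and without A129-2 it was 12 higher. Vegfa, Bnip3 and Pfkfb3 were called only with AOS-16 included. Gapdh, a glycolytic enzyme, was not called, at 7244, 2274 and 11025 against 8314 and 8069.

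The ER chaperone genes set AOS-16 apart more clearly. Over 17 genes the line medians were -0.33, -0.32 and 1.29, the group median was 0.15, and it was -0.41 without AOS-16. Called genes numbered 1 in each direction, Sdf2l1 (1.15 ± 1.34) and Dnajb9 (-1.09 ± 0.79), and 4 were higher without A129-2. Sdf2l1 lost its call in 5 of 13 alternatives, without AOS-14, without AOS-16, with FPKM as deposited, after quantile normalization and with each line centred on its own median, and Dnajb9 lost its call without AOS-14. Hspa5, the main ER chaperone, was at 436, 381 and 2098 TPM against 581 and 612. Hsp90b1, another, was at 379, 424 and 2179 against 699 and 729.5. Both lay over ESC XX in AOS-16 and under it in the other lines, so neither was called. ATF4 target genes had line medians of -0.44, 0.30 and 0.95 over 25 genes, and the group median of 0.35 became -0.07 without AOS-16. Ddit4, an inhibitor of mTORC1, was the only one called, and 5 were higher without A129-2. It was at 119, 201 and 650.3 against 53.6 and 53.9 (2.30 ± 1.25). Trib3, a pseudokinase induced by ATF4, was at 23.2, 26.5 and 90.6 against 21.4 and 22.3. Differences between AOS-16 and ESC XX in these pathways are thus values of a single library of a single line.

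**Figure D4:**
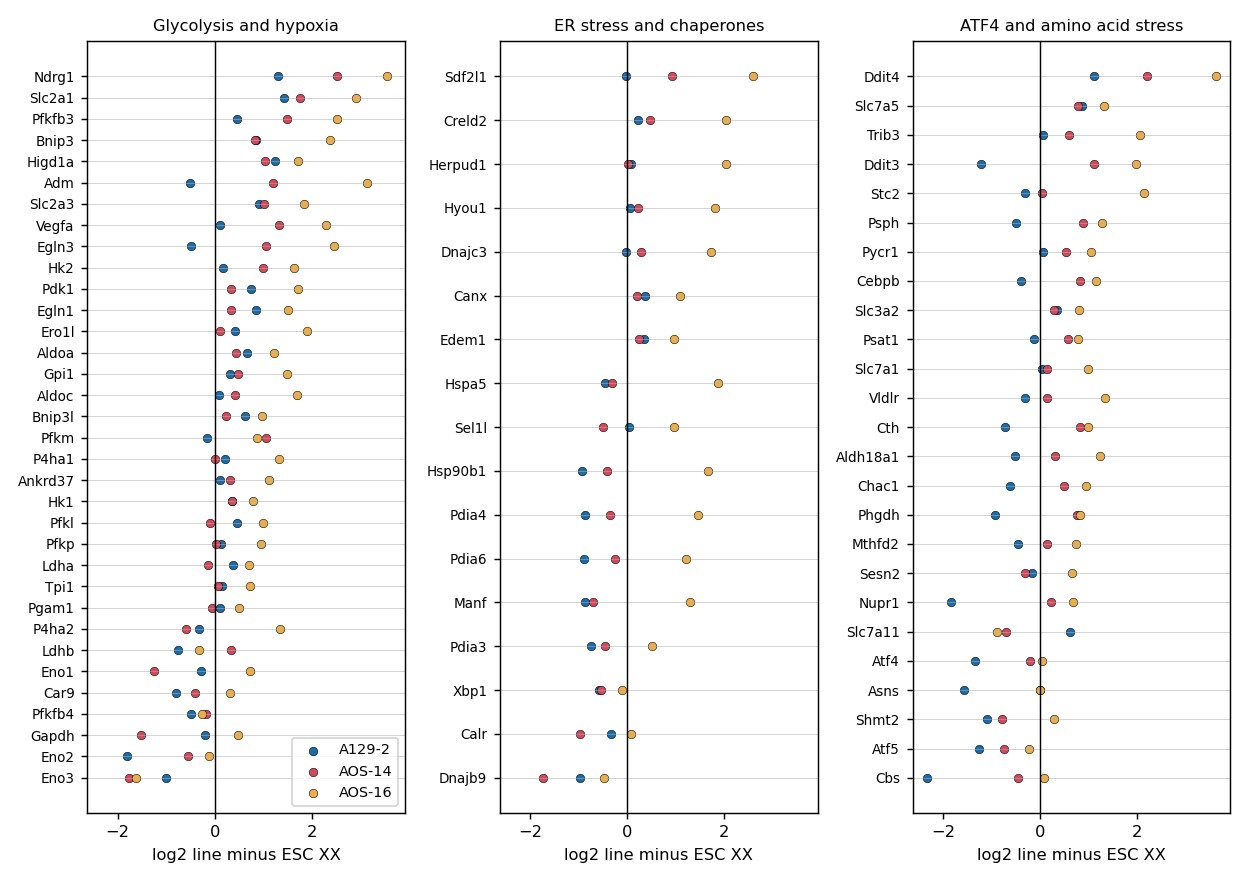
Log2 difference of each line from the ESC XX mean for every gene compared in 3 lists, glycolysis and hypoxia, ER stress and chaperones, and ATF4 and amino acid stress. AOS-16 lies farthest to the right for most genes, while A129-2 and AOS-14 lie on both sides of 0 in the ER stress list.

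Imprinted genes split in direction. Of 29 genes expressed from the father's copy, 4 were higher (13.8%, background 5.42%) and 6 lower (20.7%, background 8.03%). Their median of 0.09 changed sign in 5 alternatives, down to -0.16. Peg12, in the Snrpn region of chromosome 7, was at 31.9, 7.67 and 13.1 TPM against 1.84 and 3.09 (2.33 ± 0.97). Snrpn itself was at 149.6, 105 and 149.7 against 61.1 and 70.6 (1.11 ± 0.29). Sfmbt2, on chromosome 2, was at 16.6, 10.8 and 23.8 against 6.03 and 6.14 (1.39 ± 0.54). These were over ESC XX in all lines, as the call requires. The amino acid transporter gene Slc38a4 (1.19 ± 0.55) was higher as well, but not without AOS-16. On the lower side, Igf2, a fetal growth factor that fibroblasts of the embryo also express, was at 2.01, 5.52 and 8.15 against 138 and 135 (-4.50 ± 0.82). Dio3, Nnat, Zdbf2, Plagl1 and Mcts2 were the other 5, at -2.21, -1.73, -1.49, -1.22 and -1.14.

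Of 23 genes expressed from the mother's copy, 4 were lower (17.4%, background 8.03%) and 1 higher (4.35%, background 5.42%), with a median of -0.39. Without A129-2, 8 were lower, and 7 without AOS-14. H19, a long noncoding RNA, was still present in all lines, at 9.05, 63.0 and 25.5 TPM against 98.0 and 101 (-1.86 ± 1.34). Grb10, an adaptor that restrains insulin signalling, was at 15.4, 8.62 and 21.8 against 55.3 and 54.0 (-1.76 ± 0.63). Osbpl5 was at 0.119, 0.457 and 0.568 against 9.03 and 8.65 (-2.74 ± 0.26). Dcn, the fourth, is also in the fibroblast list (-3.26 ± 1.17). The maternal list held levels above 0 in lines that have no maternal genome, and imprinted expression of single genes was not measured by allele here.

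Few genes of the machinery for methylating DNA and for Polycomb silencing were called. Of 23 DNA methylation genes, 2 were higher and none lower, Dnmt3l and the stress-induced gene Gadd45a (1.28 ± 0.69). The median of the list was -0.32, with 15 genes below 0. Dnmt1, the maintenance methyltransferase, was at 69.0, 77.7 and 91.5 TPM against 105 and 108 and Uhrf1, its targeting factor, at 148, 203 and 217 against 259 and 258. Dnmt3b, a de novo enzyme, was at 26.01, 31.8 and 32.8 against 54.7 and 52.8. All 3 lines lay under both ESC XX libraries for each, by less than the threshold. Of all autosomal genes compared, 26.6% had every line under both libraries and 22.8% every line over both. Of 23 Polycomb and trithorax genes, only Phf19, a subunit of Polycomb repressive complex 2, was called, at 3.85, 8.29 and 8.50 against 0.535 and 0.962 (2.22 ± 0.55), while Ezh2, its enzyme, was at 109, 108 and 127 against 92.3 and 96.7.

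Marker genes of embryonic lineages gave small and mixed counts. Of 17 trophoblast genes, 4 were higher (23.5%, background 5.42%) and 2 lower (11.8%, background 8.03%). Gata3, a trophoblast factor, was at 8.75, 11.7 and 8.45 TPM against 2.83 and 2.19 (1.69 ± 0.23). Tfap2c, a factor of trophoblast and germ cells, was at 60.8, 56.3 and 50.5 against 24.6 and 24.4 (1.26 ± 0.13), whereas its paralog Tfap2a was lower (-1.97 ± 0.33). Of 17 epiblast genes 2 were higher (11.8%, background 5.42%) and 3 lower (17.6%, background 8.03%), and without A129-2 the counts were 1 and 5. The list leaned downward, with a median of -0.33 and 12 genes below 0. In each line on its own, 3 genes were lower by at least 1 and 1 was higher by that much. The 2 genes called higher were the transcription factors Otx2 (1.14 ± 0.42) and Grhl2 (1.76 ± 0.31). Otx2 lost its call without A129-2. Of 15 primitive endoderm genes, 5 were lower, all 5 of them genes of the basement membrane or matrix, such as Col4a2 at 20.6, 24.0 and 36.7 against 78.6 and 79.9 and Sparc at 303, 302 and 354 against 807 and 802. Fibroblasts express these too, and their part in these values was not tested. Amn, a receptor subunit of absorptive epithelium, was higher (1.33 ± 1.00), but not without AOS-16 or with FPKM as deposited.

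Growth factor, nutrient and lipid genes held a few wide gaps. Igfbp3 and Igfbp5, IGF-binding proteins, were lower at 4.73, 6.38 and 5.67 TPM against 54.5 and 54.5 and at 1.78, 1.43 and 3.802 against 26.05 and 27.4, whereas Igfbp2 was higher at 1550, 1365 and 1995 against 705 and 688. Fgfr2, a receptor for FGFs, was at 15.9, 5.60 and 4.53 against 1.38 and 1.68 (1.86 ± 0.87). Of 21 nutrient transporters, 5 were higher (23.8%, background 5.42%) and 1 lower, led by Slc1a1, a glutamate transporter, at 15.8, 9.26 and 7.37 against 1.42 and 1.21. Of 26 genes of fatty acid and lipid metabolism, 4 were lower (15.4%, background 8.03%), 1 was higher and 21 were not called. Their median was -0.13, with 11 genes above 0. Fasn, which makes palmitate, was lower at 31.3, 24.3 and 20.3 against 124 and 123 (-2.16 ± 0.30), together with the desaturases Scd1 (-1.20 ± 0.44) and Scd2 (-1.49 ± 0.34) and with Acaca (-1.37 ± 0.23), which makes malonyl-CoA. Fabp3, a fatty acid binding protein, was higher at 1063, 2248 and 1068 against 500.2 and 542. Of 19 cholesterol synthesis genes, only Stard4, a sterol carrier, was called (1.33 ± 0.24). In the antioxidant list 3 of 27 were higher and 1 lower, among them Gsr, glutathione reductase, at 181, 163 and 238 against 80.2 and 81.8 (1.34 ± 0.28), and Nqo1 (1.32 ± 0.12).

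Basal cell functions were close to ESC XX by the group medians of their lists. No gene was called among 67 respiratory chain subunits, 25 genes of the TCA cycle, 28 of DNA repair and 24 of ribosome biogenesis, with medians of 0.14, 0.15, -0.18 and -0.20. Of 77 cytosolic ribosomal protein genes 1 was lower, Rpl30, at 208, 38.9 and 251 TPM against 355 and 318, where AOS-14 alone is far under ESC XX and without it the call was lost. Of 39 proteasome genes 1 was called in each direction, the interferon-induced subunits Psmb8 and Psmb9, both under 5 TPM and losing the call in 4 and 3 of the 12 alternatives that gave them a value. In the p53 list 5 of 23 were lower (21.7%, background 8.03%) and 1 was higher, and 2 were lower without AOS-14. Cdkn1a, the cyclin-dependent kinase inhibitor p21, was at 88.1, 54.2 and 119 against 190.0 and 190.5 (-1.08 ± 0.57). Trp53 itself was at 252, 59.6 and 249.95 against 420.3 and 397, where AOS-14 again lay far under the other lines, and its call was lost without that line. The remaining lists held few calls. They were the heat shock genes Hspa1a (-1.08) and Hspa1b (-1.34) among 19, the lysosomal protease Ctsz (-1.28) among 25, the splicing factor Srsf5 (-1.16) among 28, and Bid (-1.02), Bik (1.15) and Hrk (1.502 ± 0.89) among 17 apoptosis regulators. Pax6 (1.22) was called among 9 mesoderm and neural genes, and Polr2a (-1.65), a subunit of RNA polymerase II, and B2m among 15 reference genes. Of these, Polr2a and B2m kept their calls in all 13 alternatives run on single genes, and Hspa1b in the 12 that gave it a value. The reference genes had a group median of -0.03 but line medians of -0.20, -0.05 and 0.45, with AOS-16 highest. Their summed level was 20860, 12909 and 25736 TPM in the lines against 23726 and 23504, so the lines were not level on them.

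Chromosome 8 was the autosome on which the lines parted from ESC XX in opposite directions. Over its 478 genes of mean level 10 TPM or more, the median difference from ESC XX was 0.63 for A129-2 and -0.27 and -0.23 for AOS-14 and AOS-16, with 86.6%, 31.8% and 35.4% of genes above ESC XX. Line medians on the other 18 autosomes lay between -0.11 and 0.05. The order of both AOS lines under the ESC XX mean and A129-2 over it held for 225 of the 478 genes (47.1%), against 9.98% of genes on the other autosomes. Of 765 genes compared on it, 34 (4.44%) were called higher and 38 (4.97%) lower, beside 5.42% and 8.03% of all autosomal genes. The chromosome was singled out after its values were seen. Genes named here that lie on it include the naive marker Zfp42 (649, 77.6 and 72.8 TPM against 334 and 338), Nqo1, Gsr, Dusp4, Col4a1 and Col4a2. Relative RNA level does not give the number of chromosome copies.

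**Figure D5:**
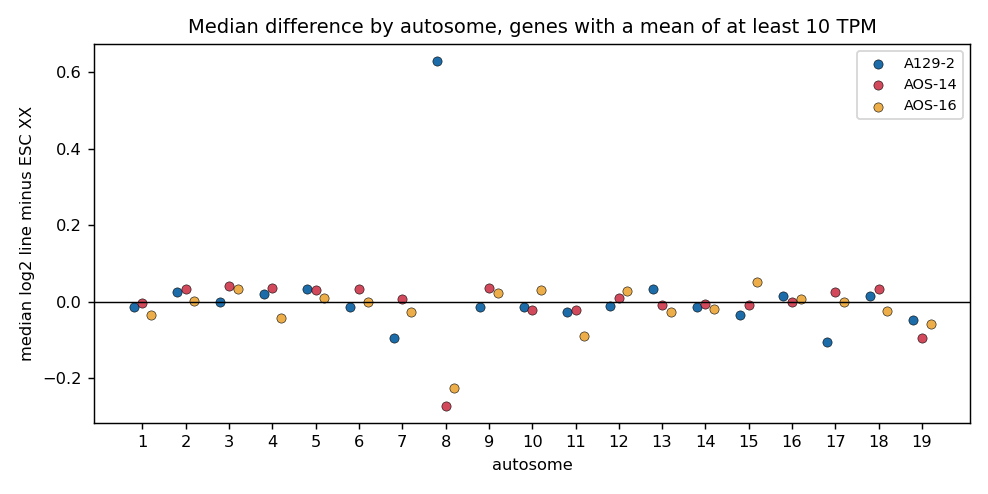
Median log2 difference from ESC XX over genes of mean level 10 TPM or more on each autosome, for each line. On chromosome 8 A129-2 stands at 0.63 and the AOS lines at -0.27 and -0.23, while all other medians lie between -0.11 and 0.05.

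The largest upward differences outside the germline list included several that rest on pseudogenes or on a single line. Rps15a-ps6, a ribosomal protein pseudogene, was at 15.1, 159 and 8.42 TPM against 0.744 and 0.488, and Apoo-ps, also a pseudogene, at 14.2, 58.6 and 54.8 against 0 and 8.31. Reads of such copies may come from the parent genes. Lars2, a mitochondrial leucyl-tRNA synthetase, was at 644, 1240 and 186 against 54.9 and 66.4 (3.22 ± 1.39), with wide gaps between the lines. Serpina3m, a serine protease inhibitor of a multicopy family, was at 19.5, 7.31 and 11.3 against 0.323 and 0.493 (3.29 ± 0.65). Pisd-ps1, another pseudogene, was at 0.0426, 22.01 and 19.6 against 0.0398 and 0.0397, so that A129-2 lay at the level of ESC XX, and it lost the call with FPKM as deposited or with each line centred on its own median. Among genes listed at 0 in both ESC XX libraries, Scarna2, a small Cajal body RNA, was listed at 0, 10146 and 0 TPM, so that it was called from AOS-14 alone. Its ties at 0 in the other lines counted as above ESC XX. Of the 739 genes called higher, 163 were listed at 0 in both ESC XX libraries, and without these and the 21 listed at 0 in every line on the lower side, the counts over the genes that remained, with the median taken anew, were 599 and 1087.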

How the data were processed

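PolyA RNA was sequenced from stranded mRNA libraries, per the labels' protocols. Reads were aligned to mm9 and quantified with TopHat2 2.0.13 and Cuffdiff 2.2.1, per the submitters' processing notes, and no source used here gives their settings, normalization between libraries or use of strand. The authors deposited FPKM values, a unit named in the ESC XX tables and, for the AG-haESC table, taken from the tool and the size of the values. From these, each of 5 libraries was rescaled to a total of 1000000 over shared symbols (TPM), genes of at least 1 TPM in any library were kept, and log2(TPM + 1) was compared in Python 3.11.15 with numpy 2.4.6 and pandas 2.3.3. This scale understates the change of low genes. The median difference was removed between groups. The values of single lines were centred on each line's own median. The procedure was tested on simulated data with known changes.

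The members and the 46 gene lists were chosen with earlier results of these data known, so lists are described by counts and medians, to be read beside those of all autosomal genes. Of 1216 listed genes, 1193 were found in the tables. Named genes were the 15 largest called differences in each direction (at least 200 nt long, at least 10 TPM in the higher group, not listed at 0 throughout a group), the 10 highest listed at 0 throughout the other group, up to 4 called members of each list and direction, and members that stand for a list's role. Further called members were named to account for small counts, after their values were seen. Chromosomes were matched by symbol to a GRCm38 annotation for 99.5% of symbols. The files hold no counts, so depth was estimated from the steps of low values in 2174 genes with 1 transcript and is approximate.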

Additional observations from a re-analysis of the deposited data

How the results depend on the processing

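No paired analysis was possible because nothing in the labels links any AG-haESC line to an ESC XX library. The 13629 autosomal comparisons gave 739 genes higher and 1094 lower. The higher count became 1127 with a pseudocount of 0.1, 457 with a minimum of 10 TPM and 357 with FPKM as deposited, and the lower count became 594 with the minimum of 10 TPM. With each line centred on its own median, 582 were higher and 1112 lower. Asking for a difference of at least 1 in each line, a rule added after the data were seen, gave 217 and 680. Leaving out 1 library at a time gave 629 to 1068 higher and 1107 to 1263 lower, and of the genes called with all libraries 494 higher and 1014 lower were also called without AOS-14. The alternatives were followed for 165 single genes, of which 162 were called. Of the called genes, 121 kept the call in every alternative that gave them a value (12 or 13 for each). None of the 165 changed sign. Other genes named in the text, such as Dazl, Sycp3, Col1a1, Fos and Hspa5, were not among the 165. Their values were not followed through the alternatives. The 12 lists with a median beyond 0.5 in size kept their sign. With 3 lines against 2 libraries, an exact two-sided rank-sum test could not give a p under 0.2, and depth of 8.52 to 18.16 M (mega) fragments limits low genes.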
